A study of Mus musculus with 3 samples.

Results

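The genes described here are 10 components of the Notch pathway: the receptors Notch1 and Notch2, the ligands Dll1, Dll3 and Jag1, the nuclear effector Rbpj, the target genes Hes1, Hes5 and Hey1, and the inhibitor Numb. Chromatin immunoprecipitation followed by sequencing (ChIP-seq) was used to map the nucleoporin Seh1 in primary neural stem cells of wild type mice, cultured from P0 (newborn) cortex in growth medium with EGF and bFGF and fixed while proliferating. Each group had 1 library: an immunoprecipitation with an antibody to Seh1, one with IgG as the background control, and an input, of which no separate values were analysed here. The members were read from the peak lists by gene name, and a gene without a line had no peak. Every peak carries the gene whose transcription start site (TSS), among those in the authors' annotation, lay nearest to its centre. On this rule 3 of the 10 genes, Notch2, Hes1 and Hey1, held 9 of the 16113 Seh1 peaks, and 1 gene, Jag1, held 1 of the 5314 IgG peaks. No gene held peaks of both lists. The lists give positions but no peak heights, reads or depth, and they measure no expression, so the labelled cell type could not be checked by markers. With 1 library a group there are no replicates, no value has an error between libraries and no test compares Seh1 with IgG.

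Notch signalling passes between touching cells. A ligand of the Delta or Jagged family on one cell engages a Notch receptor on its neighbour, the receptor is cut by an ADAM protease and then by gamma-secretase, and the freed intracellular domain enters the nucleus and joins the DNA-binding protein RBPJ to switch on targets of the Hes and Hey families. In the embryonic cortex these targets encode transcriptional repressors of proneural genes, and they keep neural stem cells from becoming neurons.

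The share of members with a peak was close to that of genes at large. Of the 21775 protein-coding genes in the RefSeq table, 31.9% had a Seh1 peak by the same rule, 11.3% had an IgG peak and 6.42% had both, so 3 of 10 and 1 of 10 members are near those backgrounds. None of the 10 was given a Seh1 peak within 10 kb of its TSS, where 9.69% of protein-coding genes were. Within 50 kb 2 were given one (Hes1 and Notch2), where 25.2% were. Seh1 peaks given to other genes lay within 50 kb of the 5′ end of Dll1, Hes5 and Numb as well. Only Notch2 held a Seh1 peak centre inside the gene, where 19.5% of protein-coding genes did, and no member held an IgG peak centre, where 6.26% did. None of the 12 promoter windows that RefSeq (GRCm38.p6) gave for 8 of the members, each 250 bases before to 50 after a start, overlapped a Seh1 or an IgG peak. The same share over all 32851 windows was not computed, so this count has no background beside it. Hes1 and Hey1 had no window in that table.

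**Figure D1:**
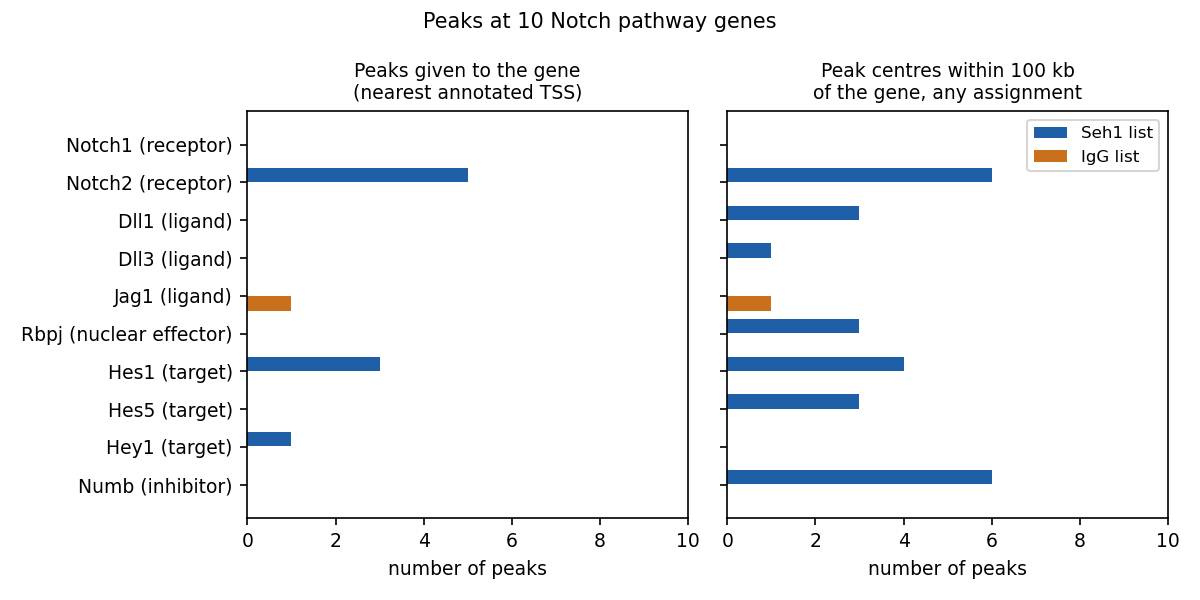
Number of Seh1 (blue) and IgG (orange) peaks for each of the 10 Notch pathway genes, with 1 library each. The left panel counts peaks given to the gene by the nearest annotated TSS (Notch2 5, Hes1 3 and Hey1 1 Seh1 peak, Jag1 1 IgG peak), and the right panel counts all peak centres within 100 kb of the gene, where Notch2 and Numb reached 6 Seh1 peaks.

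Among the receptors, Notch2 held 5 Seh1 peaks and Notch1 held none. Notch2 spans 136830 bp on chromosome 3 (mm10, chr3:98013538-98150367). Its Seh1 peaks formed a group upstream and a pair inside the gene. Upstream lay chr3:97972302-97972544 (243 bp wide, 41.1 kb before the TSS), chr3:97982580-97982822 (243 bp, 30.8 kb before) and chr3:97999101-97999347 (247 bp, 14.3 kb before). The first and second were intergenic with no repeat label, and the third, the nearest to the TSS, was centred on a B1_Mus1 element, a SINE of the Alu (B1) family. Measured to gene bodies, the first and second were nearer to the protein-coding gene Gm5544, at 5.41 and 15.7 kb, than to Notch2. A further Seh1 peak lay in intron 1 of 1 of Gm5544 and was given to that gene. The pair inside the gene, chr3:98062129-98062371 (243 bp) and chr3:98066310-98066561 (252 bp), lay in intron 2 of 33, at 48.7 and 52.9 kb after the TSS and 4.18 kb apart. Of the 5, 3 had the minimum width of the Seh1 list, 243 bp, which 27.2% of all Seh1 peaks had. At least 5 Seh1 peaks were given to 1.63% of protein-coding genes, a share not matched for gene length. Notch2 is long, and among the 2178 genes in its stratum (the longest of 10 strata of length, from 108874 bp) 63.2% were given a Seh1 peak. No IgG peak was given to Notch2, and the nearest, given to Sec22b, lay 108 kb from the gene.

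Notch1, the paralogue of Notch2, spans 45921 bp on chromosome 2 (chr2:26457902-26503822) and had no Seh1 or IgG peak within 100 kb. Its nearest Seh1 peak lay 164 kb downstream in exon 2 of 10 of Ccdc187, and 87.2% of protein-coding genes had a Seh1 peak nearer to them. Its nearest IgG peak was 1750 kb away. In the length stratum of Notch1, 38.8% of genes were given a Seh1 peak, and in its stratum of territory 38.1% were.

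None of the 3 ligand genes was given a Seh1 peak. Dll1, a ligand that activates Notch on the neighbouring cell, lies at chr17:15367354-15376932. It had 3 Seh1 peaks within 100 kb, all given to other genes. The nearest, chr17:15401801-15402048, lay 25 kb upstream of Dll1 in exon 2 of 11 of Fam120b, and the other peaks, 69.9 and 77.7 kb downstream, were given to Gm5091. In the length stratum of Dll1 23.5% of genes were given a Seh1 peak, and in its stratum of territory 53.2% were. Dll3, a divergent ligand that acts mainly inside the cell that makes it, lies at chr7:28293555-28301785 in gene-dense sequence. It had 1 Seh1 peak within 100 kb, 50.1 kb away and given to Eid2. With its share of the gaps to the neighbouring protein-coding genes, Dll3 had a territory of 11.3 kb, and in that stratum of territory 12.5% of genes were given a Seh1 peak. In its length stratum 23.5% were.

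Jag1, the Jagged ligand among the members, was the only one with an IgG peak and had the farthest Seh1 peak of the 10. The IgG peak, chr2:137207588-137207907, was 320 bp wide, intergenic, outside any labelled repeat and 91.2 kb upstream of the Jag1 TSS. The gene lies at chr2:137081451-137116520. Its nearest Seh1 peak lay 271 kb downstream in an IAPEY2_LTR element of the ERVK family and was given to Slx4ip. A Seh1 peak lay nearer for 94.6% of protein-coding genes. This is a gene in wide surroundings, with a territory of 605 kb, and 65.6% of genes in its stratum of territory were given a Seh1 peak. In its length stratum 33.6% were.

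Rbpj, the DNA-binding partner of the Notch intracellular domain, was given no peak of either list, although 3 Seh1 peaks lay just past its 3′ end. The gene spans 101667 bp at chr5:53555779-53657445. The 3 peaks lay 11.0 kb (chr5:53668289-53668541, in an L1_Mus4 LINE element), 28.3 kb (chr5:53685605-53685847) and 31.1 kb (chr5:53688429-53688682, in a MamRep1527 element) beyond it. The authors' annotation gave all of them to Rnu7, whose start site was nearer than that of Rbpj. At least 3 Seh1 peaks within 100 kb were found for 28.8% of protein-coding genes, a share not matched for gene length. In the length stratum of Rbpj 47.5% of genes were given a Seh1 peak, and in its stratum of territory 53.2% were. The nearest IgG peak was 351 kb away.

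The target genes held 4 Seh1 peaks, 3 at Hes1 and 1 at Hey1. Hes1, the repressor that oscillates in neural progenitors, spans 2440 bp at chr16:30065357-30067796. Its 3 peaks lay in a row downstream of the gene: chr16:30083759-30084072 (314 bp, 18.6 kb after the TSS), chr16:30098013-30098262 (250 bp, 32.8 kb) and chr16:30108148-30108621 (474 bp, 43 kb). They were 14.2 and 10.2 kb apart. The first and second carried no repeat label, and the third, an RLTR10E long terminal repeat of the ERVK family, exceeded 96.1% of the Seh1 list in width. No protein-coding gene lay between these peaks and Hes1; the lncRNA Gm32998 and the pseudogene Gm20040 did, the second only before the 2 farther peaks. One more Seh1 peak, chr16:30048757-30049203, lay on the other side, 16.4 kb upstream of Hes1, and was given to 9030404E10Rik. At least 3 Seh1 peaks were given to 6.08% of protein-coding genes, and at least 4 within 100 kb were found for 15.7%. Neither share is matched for gene length or territory. Of genes in the length stratum of Hes1, 21.5% were given a Seh1 peak; in its stratum of territory, which starts at 284 kb, 65.6% were. The nearest IgG peak lay 525 kb from the gene.

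Hey1, a Hes-related repressor, lies at chr3:8663359-8667038. Its 1 Seh1 peak, chr3:8776599-8776966, was 368 bp wide, lay 109744 bp upstream of the TSS and was centred on an Lx5c LINE element of the L1 family. Its distance exceeded that of 76.8% of all Seh1 peaks to their TSS. Between the peak and Hey1 lay 5 non-coding gene models and no protein-coding gene, and the nearest protein-coding gene body was that of Mrps28, at 25.4 kb. Measured from the gene itself, the nearest Seh1 peak was another, 108 kb downstream in intron 4 of 4 of Stmn2. In the length stratum of Hey1 21.5% of genes were given a Seh1 peak, and in its stratum of territory 31.9% were.

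Hes5, the other main Notch effector of cortical stem cells, was given no peak. It spans 1747 bp at chr4:154960626-154962372. The 3 Seh1 peaks within 100 kb all lay upstream, 24.5 kb (chr4:154935928-154936259), 26.0 kb (chr4:154934486-154934728) and 35.2 kb (chr4:154925255-154925683) from the gene, and all were given to Tnfrsf14. The farthest of them was inside Tnfrsf14, in intron 3 of 7. Hes5 has a territory of 18.6 kb, and in that stratum 16.6% of genes were given a Seh1 peak. In its length stratum 21.5% were. The nearest IgG peak was 1200 kb away.

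Numb, which is passed unequally to daughter cells and dampens Notch signalling, had no peak of its own but as many Seh1 peaks around it as Notch2. The gene spans 127909 bp at chr12:83794034-83921942 and held no peak centre. In its length stratum 63.2% of genes were given a Seh1 peak, and in its stratum of territory 43.8% were. Those shares count peaks given by the nearest TSS, not centres inside the gene. Within 100 kb lay 6 Seh1 peaks, a number reached by 4.45% of protein-coding genes. That window includes the gene itself and so is wider for long genes, and the share is not matched for length. The 4 upstream peaks lay 33.8 to 81.3 kb away; the nearest pair were given to Riox1 and the others to Acot2 and Acot1.

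**Figure D2:**
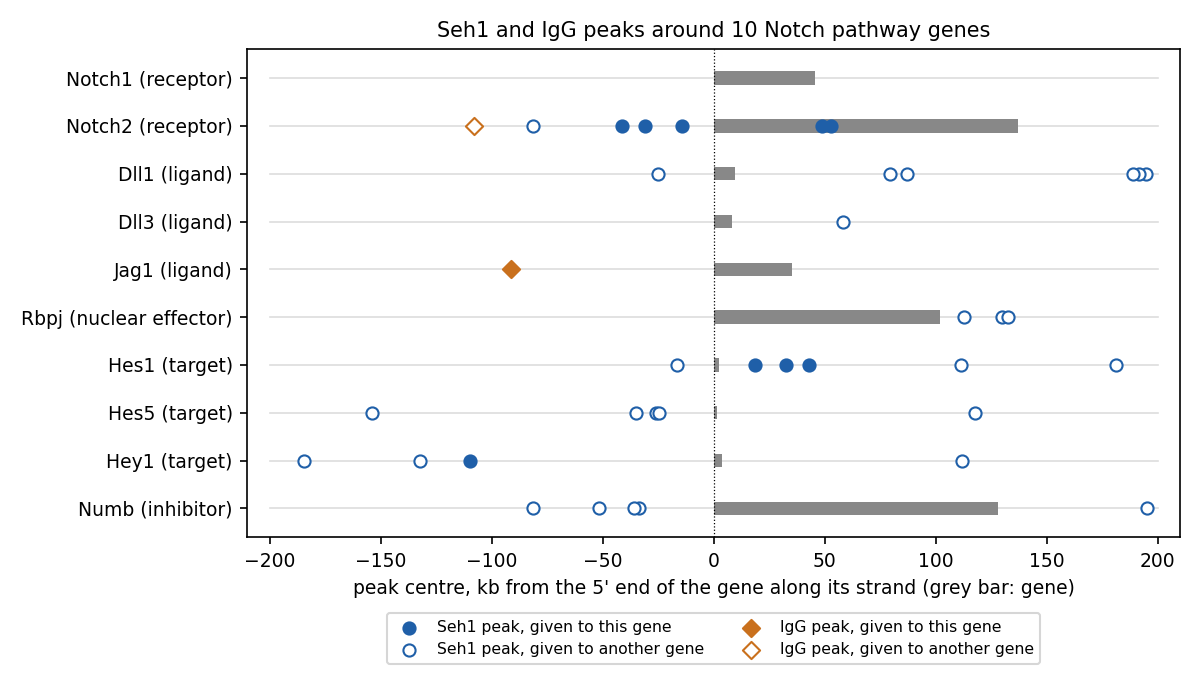
Positions of Seh1 (blue circles) and IgG (orange diamonds) peak centres within 200 kb of the 5′ end of each gene, in kb along the gene's strand, with the gene as a grey bar; filled symbols were given to the gene and open symbols to another gene. The 5 filled circles of Notch2 lie before the gene and in its intron 2, the 3 of Hes1 lie 18.6 to 43 kb after the start, and Notch1 has no symbol.

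The authors' rule of the nearest TSS decided part of these counts. In all, 26 Seh1 peak centres lay within 100 kb of a member, of which 8 were given to that member and 18 to another gene. With each peak given to the nearest protein-coding gene body instead, 4 members held 10 Seh1 peaks: Hes1 had 4, Notch2 had 3, Dll1 had 2 and Rbpj had 1, whereas Hey1 had none. Jag1 still had the only IgG peak among the members. Counted by closeness alone, 7 of the 10 had a Seh1 peak within 100 kb and 1 had an IgG peak, against 76.4% and 27.2% of protein-coding genes. The 3 without a Seh1 peak there were Notch1, Jag1 and Hey1, and 23.6% of all protein-coding genes had none.

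Distances from the genes to the nearest peak ranged widely. For Seh1 the distance was 0 (inside) at Notch2, 11.0 kb at Rbpj, 16.1 kb at Hes1, 24.5 kb at Hes5, 25 kb at Dll1, 33.8 kb at Numb, 50.1 kb at Dll3, 108 kb at Hey1, 164 kb at Notch1 and 271 kb at Jag1. The median was 29.4 kb, and that of all protein-coding genes was 37.1 kb with quartiles of 6.66 and 94.9 kb. For IgG the distance ran from 91.2 kb at Jag1 to 1750 kb at Notch1 with a median of 409 kb, and 8 of the 10 genes lay farther from an IgG peak than the median protein-coding gene (271 kb). The IgG list has fewer peaks, so its distances are longer for genes of any kind.

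**Figure D3:**
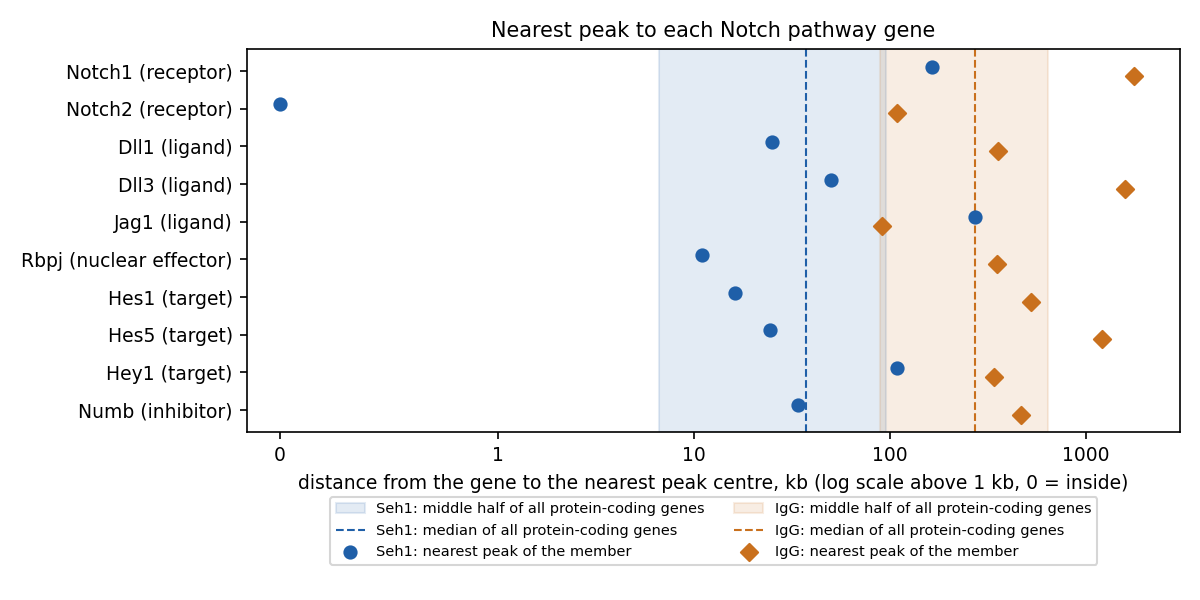
Distance in kb from each gene to its nearest Seh1 (blue circles) and IgG (orange diamonds) peak centre, on an axis that is logarithmic above 1 kb; dashed lines mark the median and shaded bands the range between the quartiles over all protein-coding genes. Of the Seh1 distances, 6 lie below the median of 37.1 kb and 4 above it, with Notch2 at 0.

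The 9 Seh1 peaks given to members were compared with the whole Seh1 list. They lay 14.3 to 110.0 kb from the TSS with a median of 41.1 kb, and all Seh1 peaks had a median of 37.8 kb. Of the 9, 7 were intergenic and 2 intronic, where the whole list had 54.3% and 36.8%. A repeat was labelled at 3 of the 9 (33.3%, 95% exact Clopper-Pearson interval 7.49 to 70.1%, counting error only), and at 39.8% of the whole list: 1 ERVK element, 1 L1 element and 1 B1 element. None of the 9 overlapped an IgG peak, and of the whole list 0.372% did. The approximate rule of 3 (3 divided by the 9 peaks), not the exact method, allows a share of up to 33.3%. This limit and the interval for repeats take the peaks as independent. Their widths ran from 243 to 474 bp with a median of 250 bp, against 266 bp. Within 20 kb of 8 of the 9 lay another Seh1 peak, which was so for 33.8% of all Seh1 peaks and for 47.6% of the 5543 peaks of protein-coding genes given at least 3. These 8 are the peaks of only 2 genes, Hes1 and Notch2, and so are not independent of each other.

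The rest of the pathway was described by a list of 43 other genes. Of these, 11 (25.6%) were given a Seh1 peak and 6 (14%) an IgG peak, where all protein-coding genes had 31.9% and 11.3%. Both lists gave a peak to 2 of the 43, Aph1b and Fbxw7, and to 6.42% of all protein-coding genes. The Seh1 peak given to Aph1b lay inside another gene, in the 3′ UTR of Car12, 10.7 kb from Aph1b. It was 27.9 kb from the nearest IgG peak. By role, Seh1 peaks were given to 4 of 9 receptor cleavage genes, 2 of 7 inhibitors, 2 of 6 further targets, 1 of 4 further ligands, 1 of 4 genes for ligand endocytosis and 1 of 3 coactivators. The 2 further receptors, the 5 receptor glycosylation genes and the 3 corepressors were given none.

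**Figure D4:**
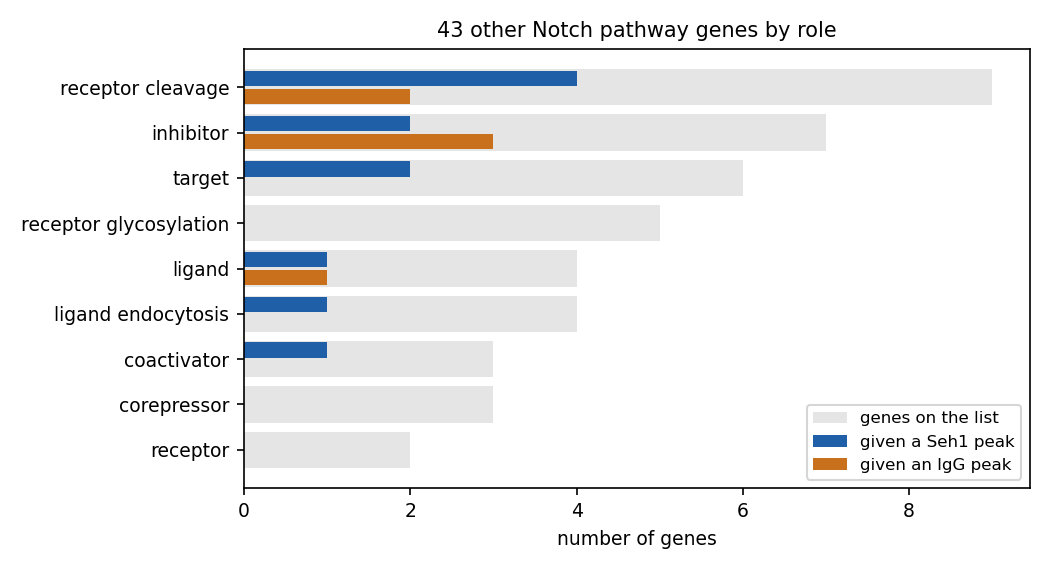
Number of genes by role among 43 other Notch pathway genes: all genes on the list (grey), those given a Seh1 peak (blue) and those given an IgG peak (orange), with 1 library each. Receptor cleavage genes had the highest Seh1 count, 4 of 9, and glycosylation genes, corepressors and further receptors had none.

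The 43 genes were given 26 Seh1 peaks in all, and a long coactivator gene had the highest count. Maml3, a Mastermind coactivator that joins RBPJ and the Notch intracellular domain, was given 8 Seh1 peaks, a number reached by 0.308% of protein-coding genes. Of these, 6 lay in its intron 1 of 4, from 20756 to 200370 bp after the TSS, and 2 lay upstream. Within 100 kb of Maml3 lay 12 Seh1 peak centres, a number reached by 0.248% of protein-coding genes, and 9 of them were inside it. Maml3 spans 418 kb, and neither share is matched for gene length. Fbxw7, a ubiquitin ligase subunit that marks the Notch intracellular domain for breakdown, was given 5 Seh1 peaks, 1 upstream and 4 beyond its end, at 28.1 to 172 kb from a TSS. Hey2, a paralogue of Hey1, was given 3, all upstream, at 38.6, 51.0 and 226 kb; the farthest, chr10:31068524-31069126, was 603 bp wide and the widest on either list of Notch genes.

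Peaks near a start site were few. Neurl1b, a ligase that promotes the endocytosis of ligands, had Seh1 peaks 7.70 and 12.4 kb before its TSS. It was the only one of the 43 given a Seh1 peak within 10 kb, where 9.69% of protein-coding genes were. Adam17, a protease that can cut Notch, had a Seh1 peak 16.2 kb upstream. That peak was annotated at a transcription termination site, and its nearest gene body was that of Ywhaq, at 0.538 kb. Dner, a neuronal Notch ligand, had one 18.8 kb upstream in an Lx LINE element, with Trip12 nearer, at 6.17 kb. Numbl, the paralogue of Numb, had one 17992 bp downstream in its own exon 8 of 10. In the IgG list 3 of the 43 were given a peak within 10 kb, where 2.36% of protein-coding genes were: Aph1b, a gamma-secretase subunit (3.0 kb), Dtx4, of the Deltex family (3.65 kb, in a young L1Md_T element), and the ubiquitin ligase gene Itch (9.76 kb, in an ID_B1 element). The IgG peaks of Adam10, the main protease that cuts ligand-bound Notch, Dlk1, an atypical ligand, and Fbxw7 lay 63.2, 138 and 135 kb from the TSS. Of the 6 IgG peaks, 5 had the minimum width of that list, 236 bp, and without peaks of minimum width the IgG count fell from 6 genes to 1.

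Of the 43 genes 8 (18.6%) contained a Seh1 peak centre, near the 19.5% of all protein-coding genes. Of those 8, 4 genes, Notch3, Maml2, Kdm5a and Dtx4, were given no Seh1 peak because another start site was nearer. These 4 were picked out after their values were seen. They include the receptor Notch3, whose peak was given to Pdxk-ps, and Kdm5a, a histone demethylase that acts with RBPJ, which contained 3.

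One Seh1 peak among those of the Notch genes fell on a RefSeq promoter window, and its sequence is shown because it is the only stretch under these peaks whose letters were at hand. The peak, chr2:25145399-25145642, was given to Nrarp, a Notch target that feeds back on the pathway, 35.2 kb before its TSS. It was picked out after its position was seen. It covered 205 bases of the window of the lncRNA Gm13387 (GRCm38.p6, chr2:25145438-25145737, minus strand). That RefSeq start was nearer than the start of Nrarp, so the authors' rule did not use it. Capitals mark the bases inside the peak.
Gm13387: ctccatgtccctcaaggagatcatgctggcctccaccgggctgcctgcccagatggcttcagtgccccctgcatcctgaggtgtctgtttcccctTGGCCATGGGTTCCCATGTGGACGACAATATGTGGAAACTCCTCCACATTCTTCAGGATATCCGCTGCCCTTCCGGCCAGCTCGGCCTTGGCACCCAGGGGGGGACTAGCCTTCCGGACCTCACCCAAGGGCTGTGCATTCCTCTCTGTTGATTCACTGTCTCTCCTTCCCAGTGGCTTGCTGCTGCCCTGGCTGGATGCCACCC
The covered bases were 60.0% G or C. The window held 2 matches, both under the peak, to TGGGAA or its reverse complement TTCCCA, the core letters of the RBPJ motif, which overlap the letters bound by Ikaros factors. At least 1 match was found in 25.6% of all 32851 promoter windows of this length.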

How the data were processed

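The deposited lists hold 1 line per peak in mm10, annotated with HOMER annotatePeaks.pl, per the file headers. Bowtie2 and HOMER are named in the submitters' processing notes, without versions; no source used here states the peak caller or its threshold. The notes list human builds (hg18 and hg38), but the file headers name mm10. The deposited score was 0 for every peak, so the lists carry no height, and depth is unknown. The authors listed peaks per library, against input per the file headers.

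Python 3.11.15 with pandas 2.3.3 and SciPy 1.17.1 was used. Gene positions came from the RefSeq table of GRCm38.p6, the assembly of mm10, without 394 entries below 3 Mb outside chromosome Y, which left 21775 protein-coding genes; all 53 list genes matched. Strata are 10 equal groups of genes by length or by territory (the gene reaching midway to each protein-coding neighbour). Overlap means at least 1 bp. Routines were tested on simulated peaks. No test was run. The members and lists were chosen with earlier results of these data known. Named were all members; of the other genes those with a Seh1 peak within 20 kb of the TSS, up to 3 with the most Seh1 peaks and those given an IgG peak. Genes given peaks near a member, and genes nearest to or holding a peak given to a Notch gene, were named after their values were seen. The peaks of 1 gene are not reported here.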

Additional observations from a re-analysis of the deposited data

How the results depend on the processing

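Each of the 10 counts, medians and shares for the Notch genes was recomputed under the alternatives, 33 values in all. All but 2 of the recomputed counts were within 1.5 times the reported count. The median distance and the repeat share changed by more than that with only the nearest peak of each member. The median distance of member Seh1 peaks to the TSS was 41.1 kb (95% order-statistic interval 18.6 to 52.9 kb). That interval takes the 9 peaks as independent, but the peaks of Notch2 and of Hes1 lie in runs, so it is no measure of spread between genes. With only the nearest peak of each of the 3 members the median was 18.6 kb. The repeat share of member Seh1 peaks, 33.3%, was 66.7% among those nearest peaks. The number of members given a Seh1 peak near the TSS was 0 within 1, 5 and 10 kb and 2 (Hes1 and Notch2) within 50 kb. The number of other Notch genes given an IgG peak was 6, and 1 among peaks wider than the minimum. With genes taken by the nearest gene body, members with a Seh1 peak were 4 in place of 3, with Dll1 and Rbpj added and Hey1 lost. Without the peaks whose TSS did not lie on the gene they were given to (246 Seh1 and 116 IgG peaks), none of the 10 values changed. No paired analysis was possible because each group had 1 library. Peak heights and depth are unknown, so a gene without a peak may lie below the caller's threshold.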

Other observations

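At Dner, which was given 1 Seh1 peak and no IgG peak, 2 Seh1 centres and 1 IgG centre lay inside the gene.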
